A study of Homo sapiens with 9 samples.

Results

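Oxysterol metabolism and cholesterol-responsive transcription were described through 10 genes: the oxysterol enzymes CYP7B1, CYP27A1 and CH25H, the liver X receptors NR1H3 and NR1H2, the receptor targets ABCA1, ABCG1 and MYLIP, and the endolysosomal cholesterol carriers NPC1 and NPC2. They were chosen by name, matched to the symbols in the authors' deposited table, with comparisons of PRMT2 knockout (KO) and wild-type (WT) cells already known, in which CYP7B1 was far higher and ABCA1 far lower in KO cells. Their levels and calls against WT are therefore a description that supports nothing. The comparison of KO clone 2 with KO clone 1 is given with its p-values. Earlier results of these data were known at the choice, so these p-values may not be independent of it. All 10 were among the 60605 genes in the files. Of these, 9 passed the filter on low counts, as did 20655 genes in all, and CH25H did not.

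The study measured RNA by sequencing in KG-1a cells, a CD34-positive human acute myeloid leukaemia line, grown without any drug. The groups were PRMT2 KO clone 1, PRMT2 KO clone 2 and PRMT2 WT, with 3 libraries each, and both KO clones were made by CRISPR/Cas9 editing of PRMT2, which encodes a protein arginine methyltransferase. Each KO group is 1 clone, and nothing in the labels tells if WT was a clone or a mixed population. Nor is it stated that the 3 libraries of a group came from separate cultures, and p-values may therefore reflect technical spread alone.

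Oxysterols are hydroxylated derivatives of cholesterol. When cholesterol is plentiful they bind the liver X receptors (LXRs), nuclear receptors that pair with RXR and switch on genes for cholesterol efflux, while they also hold back the SREBP2 programme of cholesterol synthesis and uptake. The enzymes CYP27A1 and CH25H make oxysterols and CYP7B1 hydroxylates them further, towards bile acids or chemoattractants for immune cells, and LXR control of ABCA1 and ABCG1 is well known in myeloid cells.

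The classical LXR binding site is a pair of AGGTCA half-sites 4 bases apart (DR4). RefSeq promoter windows (GRCh38.p14), each running from 250 bases before to 50 bases after a start site, were found for 8 of the 10 genes. They were searched on both strands for that repeat with at most 2 mismatches over its 12 compared bases. ABCA1 was the 1 gene of the 8 with such a match, and 822 of all 35116 windows (2.34%) had one. The match lay 69 to 54 bases before the ABCA1 start, at chr9:104928209-104928224. The 250 bases before that start follow, on the gene's own minus strand (chr9:104928156-104928405), with the match in capitals, because ABCA1 was low in both clones.
ABCA1 promoter: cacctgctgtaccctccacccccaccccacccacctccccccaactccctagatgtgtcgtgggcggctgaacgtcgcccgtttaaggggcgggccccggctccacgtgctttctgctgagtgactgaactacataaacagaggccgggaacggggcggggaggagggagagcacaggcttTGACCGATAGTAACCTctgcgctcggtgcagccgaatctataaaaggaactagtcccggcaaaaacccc
Read in the direction of the repeat, the best match of each tested gene with a window is set out next, with the bases that equal the repeat in capitals, to show how far the other windows were from it.
ABCA1: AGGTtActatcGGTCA
NPC2: gGGTCcgggcgGGTCA
MYLIP: cGGcCAgggaAacTCA
NR1H3: AtGTCttcactGGTgA
NR1H2: cGGTCcgcttAGGaCc
CYP27A1: AGtTCAgaccAaGcgA
NPC1: cGGTCAggaagGaagA
ABCA1 had 2 mismatches, NPC2 had 3, NPC1 had 5 and the other 4 had 4 each, and 18.6% of all windows had 3 or fewer. These matches describe letters only.

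The libraries held 28006342 to 43149410 counted read pairs, and levels are given as CPM, the counts of a gene per 1000000 counts of the scaled library total. PRMT2 itself averaged 20.7 ± 0.544 CPM in KO clone 1, 21.2 ± 0.153 in KO clone 2 and 39.4 ± 0.393 in WT (SD, n = 3 each), so its RNA stood at 52.6% and 53.9% of the WT level in the clones. All 6 KG-1a markers were detected in every group, but not all at equal levels. CD44 averaged 888 CPM in KO clone 1, 704 in KO clone 2 and 581 in WT. CD99 averaged 82.3, 85.2 and 125 CPM in these groups, and PROM1 only 1.71, 1.65 and 1.71. KO clone 1 replicate 1 stood apart, since 13.3% of its pairs were multimapped, against 3.86% to 4.51% elsewhere. Of 6 macrophage markers, MARCO had no counts and CD14, CD163, MRC1 and CSF1R averaged below 1 CPM in each group, whereas the summed level of the list was 34.2 to 34.7 CPM in KO clone 1, 23.6 to 24.8 in KO clone 2 and 19.6 to 23.9 in WT, almost all of it MSR1. The 6 hepatocyte markers summed to 27.3 to 37.3 CPM in KO clone 1, 23.8 to 39.3 in KO clone 2 and 28.8 to 30.6 in WT. Most of this was TTR, which averaged 26.0, 26.2 and 22.9 CPM in these groups, and SERPINA1, at 5.65, 6.17 and 5.50. ALB, APOA1, APOB and FGB averaged below 1 CPM in each group. The part of these markers in the results was not tested.

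Calling a gene required a change of 1 or more on the log2 scale, in either direction, and an adjusted p under 0.05 in edgeR's quasi-likelihood test (Benjamini-Hochberg, over all tested genes). By this rule 2 of the 9 genes were called in KO clone 1 against WT (CYP7B1 higher, ABCA1 lower), where 7.58% of all tested genes were called. In KO clone 2 against WT 3 were called (CYP7B1 higher, ABCA1 and ABCG1 lower), where the share of all genes was 5.96%. With both clones averaged 2 were called, CYP7B1 and ABCA1, where 6.53% of all genes were. Nothing is read from these counts, since the genes were chosen with the contrasts known.

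**Figure D1:**
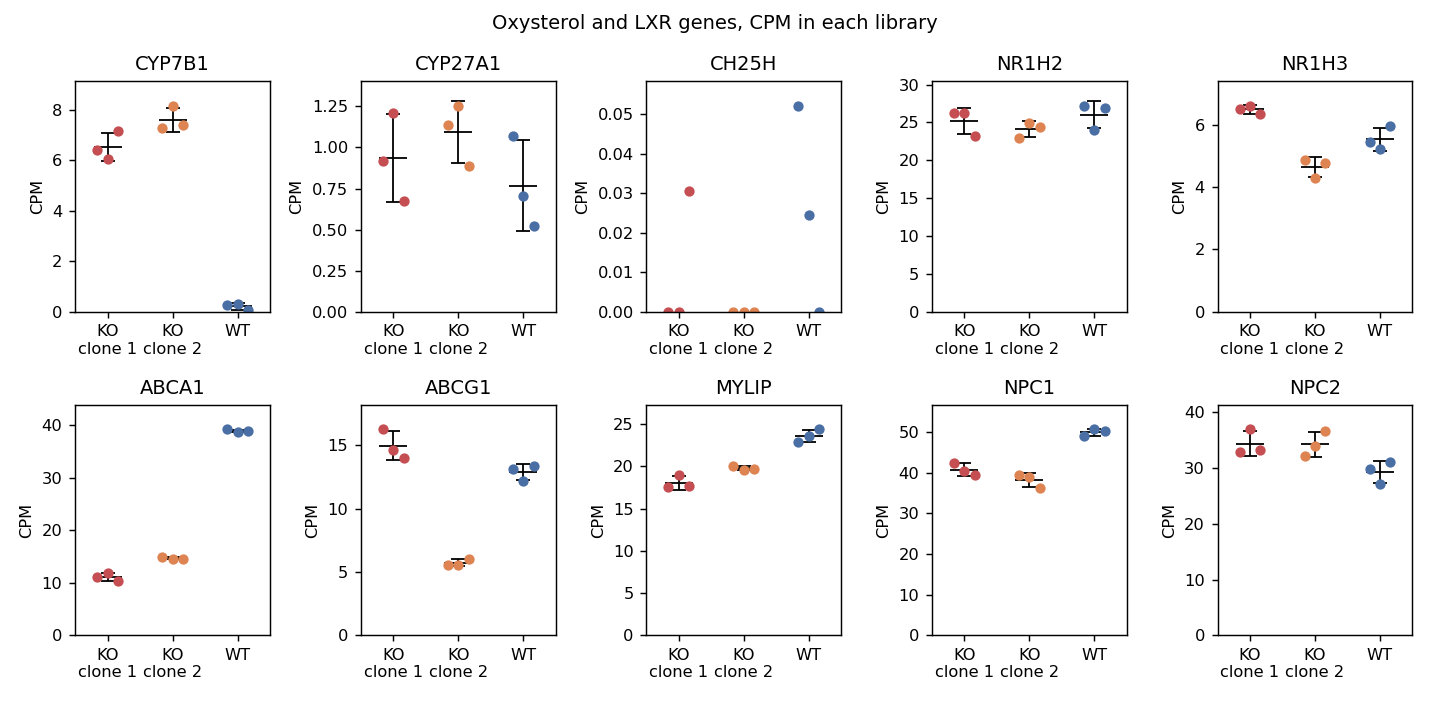
Levels of the 10 genes in each library (CPM, linear axes from 0, one panel per gene), with KO clone 1, KO clone 2 and WT from left to right; points are libraries, and black marks and error bars are the mean and SD of 3 libraries (CH25H as points alone). CYP7B1 lay between 6.05 and 8.16 CPM in the 6 KO libraries and at or below 0.317 in WT, ABCA1 lay at or below 14.9 in KO and at or above 38.8 in WT, and ABCG1 was low in KO clone 2 alone.

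The oxysterol enzymes were led by CYP7B1, a microsomal hydroxylase that inactivates side-chain oxysterols on the way to bile acids and that also makes the ligand of the immune-cell receptor GPR183. CYP7B1 (ENSG00000172817, chr8:64587763-64798737, GRCh38) had 6.40, 6.05 and 7.15 CPM in KO clone 1, 7.30, 8.16 and 7.39 in KO clone 2, and 0.261, 0.317 and 0.0616 in WT. Every KO library was far above every WT library, and the 3 WT libraries held only 10, 13 and 2 counts. In bulk libraries a higher level per cell and more cells that express the gene cannot be told apart. The mean level was 30.7-fold higher in KO clone 1 and 35.7-fold higher in KO clone 2 than in WT, with fitted log2 fold changes of 4.85 (SE 0.213) and 5.07 (SE 0.206). The size depended on the few WT counts: with both clones averaged, the CYP7B1 log2 fold change was 4.96, but 5.35 without WT replicate 2 and 4.59 without WT replicate 3.

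CYP7B1 did not pass the test between the clones. KO clone 2 was 0.22 higher than KO clone 1 on the log2 scale (SE 0.121), with an adjusted p of 0.200 in edgeR's quasi-likelihood test, and its 3 libraries were all above the 3 of KO clone 1. No other tested gene with a symbol lay within 500 kb of CYP7B1.

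CYP27A1, the mitochondrial enzyme that makes a side-chain oxysterol from cholesterol, was expressed near 1 CPM in all groups. CYP27A1 (ENSG00000135929, chr2:218781749-218815293) had 0.915, 1.21 and 0.675 CPM in KO clone 1, 1.14, 1.25 and 0.888 in KO clone 2, and 1.07, 0.707 and 0.524 in WT. The 3 groups overlapped. Its log2 fold change against WT was 0.27 (SE 0.288) in KO clone 1 and 0.49 (SE 0.270) in KO clone 2, and KO clone 2 was 0.22 above KO clone 1 (SE 0.271, adjusted p of 0.618, edgeR).

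CH25H, the enzyme induced by interferon in macrophages to make a side-chain oxysterol, was at the limit of detection. CH25H (ENSG00000138135, chr10:89205629-89207317) had 0, 0 and 1 counts in KO clone 1, none in KO clone 2, and 2, 1 and 0 counts in WT. A count of 0 allows up to 3 counts, or 0.0695 to 0.107 CPM in these libraries, so no difference was detectable at this depth. The same holds for its log2 fold change of -1.81 in the authors' deposited table, which has no adjusted p there.

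Among the receptors, NR1H2 (LXR beta, expressed in most cell types) was the more abundant per length of exon. NR1H2 (ENSG00000131408, chr19:50329653-50383388) had 26.2, 26.2 and 23.2 CPM in KO clone 1, 22.9, 25.0 and 24.3 in KO clone 2, and 27.2, 23.9 and 26.9 in WT. All groups overlapped, with log2 fold changes against WT of -0.04 (SE 0.064) in KO clone 1 and -0.11 (SE 0.062) in KO clone 2. Between the clones NR1H2 differed by -0.07 (SE 0.064, adjusted p of 0.504, edgeR).

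NR1H3 (LXR alpha, the receptor typical of liver, fat and macrophages) differed between the clones. NR1H3 (ENSG00000025434, chr11:47248300-47269033) had 6.51, 6.61 and 6.35 CPM in KO clone 1, 4.87, 4.30 and 4.77 in KO clone 2, and 5.45, 5.22 and 5.95 in WT. WT lay between the clones, with no overlap among the 3 groups. NR1H3 fell by 0.48 on the log2 scale in KO clone 2 relative to KO clone 1 (SE 0.112, adjusted p of 0.000939, edgeR), whereas its log2 fold changes against WT were 0.23 (SE 0.111) in KO clone 1 and -0.25 (SE 0.112) in KO clone 2. With the clones averaged these cancelled to -0.01 (SE 0.096). The strand opposite to NR1H3 held 27.0% of the reads of both strands over its exons, and counting without regard to strand gave -0.47 between the clones, with an adjusted p of 0.000932.

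**Figure D2:**
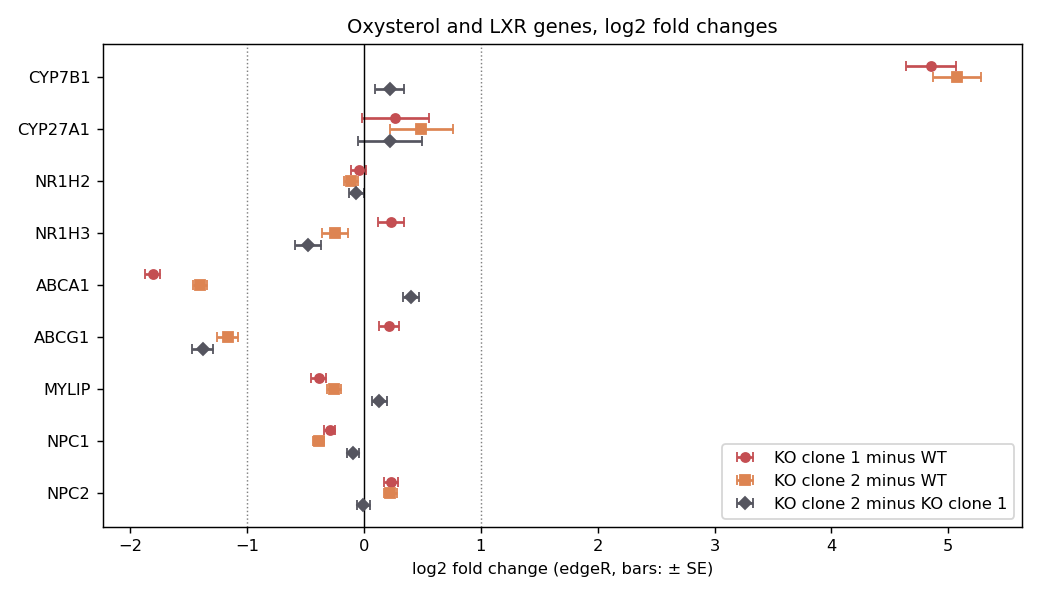
Fitted log2 fold changes of the 9 tested genes, with SE bars, in KO clone 1 against WT, KO clone 2 against WT and KO clone 2 against KO clone 1. CYP7B1 was near 5 and ABCA1 between -1.81 and -1.41 against WT in both clones, while ABCG1 was 0.21 in KO clone 1 and -1.17 in KO clone 2.

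Of the LXR targets, ABCA1, the transporter that loads cholesterol onto lipid-poor apolipoprotein A-I, was low in both clones. ABCA1 (ENSG00000165029, chr9:104781006-104928155), whose promoter sequence is printed above, had 11.2, 11.9 and 10.3 CPM in KO clone 1, 14.9, 14.6 and 14.6 in KO clone 2, and 39.2, 38.8 and 38.9 in WT. The WT libraries were close to one another, and every KO library was far below them. The mean level was 28.5% of WT in KO clone 1 and 37.7% in KO clone 2, with log2 fold changes of -1.81 (SE 0.065) and -1.41 (SE 0.061).

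ABCA1 was also unequal between the clones. KO clone 2 averaged 14.7 ± 0.205 CPM and KO clone 1 averaged 11.1 ± 0.775 CPM (SD, n = 3 each), without overlap. ABCA1 was 0.40 higher in KO clone 2 than in KO clone 1 on the log2 scale (SE 0.069, adjusted p of 1.36e-05, edgeR). None of the 3 tested genes within 500 kb of ABCA1 was called with both clones averaged, and their log2 fold changes ran from -0.19 to 0.25.

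ABCG1, the transporter that passes cholesterol on to mature HDL particles, differed most between the clones among the 9 tested genes. ABCG1 (ENSG00000160179, chr21:42199689-42297244) had 16.2, 14.6 and 14.0 CPM in KO clone 1, 5.58, 5.55 and 6.05 in KO clone 2, and 13.1, 12.2 and 13.3 in WT. All 3 libraries of KO clone 2 were low, and those of KO clone 1 were slightly above all of WT. The mean level was 116% of WT in KO clone 1 and 44.4% of WT in KO clone 2, with log2 fold changes of 0.21 (SE 0.083) and -1.17 (SE 0.089).

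Relative to KO clone 1, ABCG1 fell by 1.38 on the log2 scale in KO clone 2 (SE 0.089, adjusted p of 4.41e-16, edgeR). It was the 1 gene of the 9 called between the clones, where 2.82% of all tested genes were called. An average over both clones does not show this: the ABCG1 log2 fold change was -0.48 (SE 0.073) here, as the mean of the 2 clone values. It was -0.31 in the authors' deposited table, which compares both clones together with WT and is thus an unlike measure. ABCA1 and ABCG1 thus ran in opposite directions between the clones, ABCA1 higher and ABCG1 lower in KO clone 2.

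The 10 tested genes with a symbol within 500 kb of ABCG1, a window chosen after the values were seen, had a median log2 difference between the clones of 0.04. Of these, 2 were lower and 1 was higher in KO clone 2 at an adjusted p under 0.05. The lowest was RSPH1, a radial spoke protein of cilia, at -1.01 with an adjusted p of 0.0031, and it was the 1 neighbour called. PRMT2, the edited gene, lies on the same chromosome at chr21:46635595-46665124.

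MYLIP, the ubiquitin ligase (IDOL) through which LXRs limit cholesterol uptake, was somewhat lower in KO libraries. MYLIP (ENSG00000007944, chr6:16129086-16148248) had 17.5, 19.0 and 17.6 CPM in KO clone 1, 20.0, 19.6 and 19.7 in KO clone 2, and 22.9, 23.6 and 24.4 in WT. All 6 KO libraries were below all 3 WT libraries. Its log2 fold change against WT was -0.39 (SE 0.064) in KO clone 1 and -0.26 (SE 0.062) in KO clone 2, and the clones differed by 0.13 (SE 0.064, adjusted p of 0.139, edgeR), which did not pass.

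The carriers of cholesterol out of the endolysosome were NPC1, the membrane protein, and NPC2, the soluble protein that hands cholesterol to it. NPC1 (ENSG00000141458, chr18:23506184-23586506) had 42.5, 40.4 and 39.3 CPM in KO clone 1, 39.3, 38.9 and 36.1 in KO clone 2, and 48.9, 50.6 and 50.2 in WT. NPC2 (ENSG00000119655, chr14:74476192-74494177) had 32.9, 36.8 and 33.1 CPM in KO clone 1, 32.0, 33.9 and 36.5 in KO clone 2, and 29.8, 27.1 and 31.0 in WT. Every KO library was below every WT library for NPC1 and above every WT library for NPC2.

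Both differences were small. NPC1 had log2 fold changes against WT of -0.29 (SE 0.047) in KO clone 1 and -0.39 (SE 0.046) in KO clone 2. NPC2 had log2 fold changes of 0.23 (SE 0.059) and 0.22 (SE 0.058) in those clones. Neither gene passed the test between the clones: NPC1 differed by -0.09 (SE 0.048, adjusted p of 0.150, edgeR) and NPC2 by -0.01 (SE 0.058, adjusted p of 0.959, edgeR). The strand opposite to NPC1 held 17.7% and that opposite to NPC2 held 12.3% of the reads of both strands over their exons.

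At an adjusted p under 0.05 without the fold minimum, 3 of the 9 genes differed between the clones in edgeR's test, ABCA1 higher and ABCG1 and NR1H3 lower in KO clone 2, where 25.9% of all tested genes did. KO clone 1 and WT libraries did not overlap for 7 of the 9 genes, against 44.5% of all genes. KO clone 2 and WT libraries did not overlap for 7 of the 9 either, against 40.5% of all genes. Nothing is read from these, since the choice of genes used the contrasts. The libraries of the clones did not overlap for 6 of the 9, against 37.7% of all genes, and nothing is read from this either.

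Levels of different genes were set side by side per kilobase of exon (CPM per kb). In KO clone 1 the order was NPC2 (13.3), MYLIP (5.87), NR1H2 (4.72), NPC1 (4.20), ABCG1 (2.44), NR1H3 (1.43), ABCA1 (0.979), CYP7B1 (0.867), CYP27A1 (0.313) and CH25H (0.00606). The libraries of NR1H2 and NPC1 overlapped there, as did those of ABCA1 and CYP7B1. In KO clone 2 the order was NPC2 (13.2), MYLIP (6.43), NR1H2 (4.51), NPC1 (3.93), ABCA1 (1.30), NR1H3 (1.02), CYP7B1 (1.01), ABCG1 (0.936), CYP27A1 (0.367) and CH25H (0), and NR1H3 overlapped CYP7B1, which overlapped ABCG1. In WT it was NPC2 (11.3), MYLIP (7.69), NPC1 (5.14), NR1H2 (4.87), ABCA1 (3.43), ABCG1 (2.11), NR1H3 (1.22), CYP27A1 (0.257), CYP7B1 (0.0283) and CH25H (0.0151). NPC1 and NR1H2 overlapped there, as did CYP7B1 and CH25H. Per length, then, CYP7B1 was level with ABCA1 in KO clone 1, and ABCG1 was the more abundant efflux transporter in KO clone 1 while ABCA1 was in WT.

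**Figure D3:**
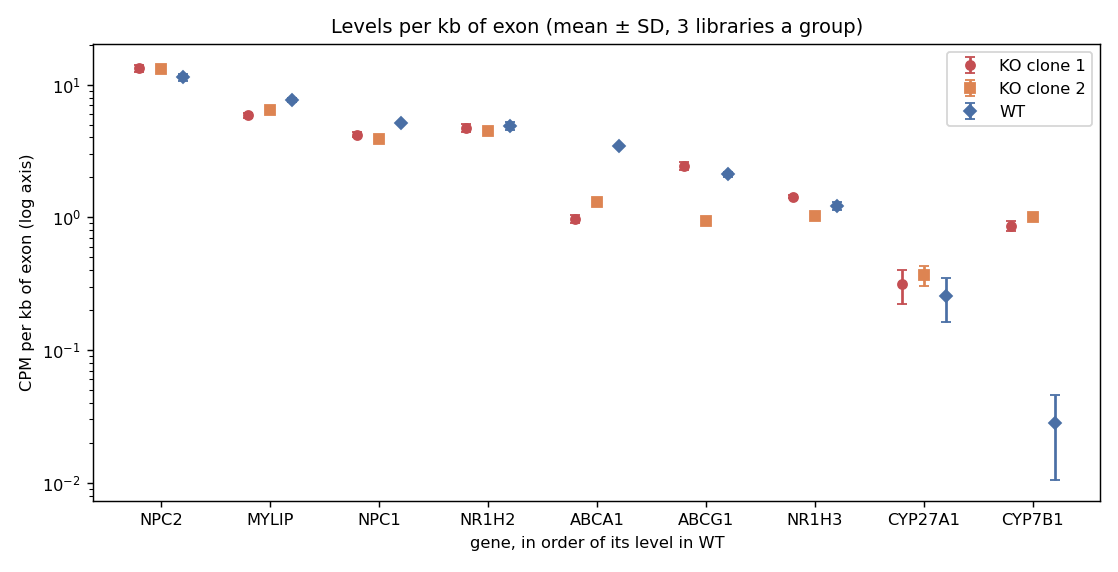
Mean level per kilobase of exon (CPM per kb, log axis) of the 9 tested genes in KO clone 1, KO clone 2 and WT, with the SD of 3 libraries. CYP7B1 stood at 0.867 and 1.01 in the clones and 0.0283 in WT, ABCA1 at 0.979 and 1.30 in the clones and 3.43 in WT, and NPC2 was the highest in all 3 groups.

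The genes with the profile most like a member's were ranked by the root mean square difference of log2(CPM + 0.5), set to the WT mean, over the 9 libraries and 10055 protein-coding genes. Each of these genes had a highest group mean of at least 5 CPM. The added 0.5 exceeded the WT mean of CYP7B1 (0.213 CPM), so its difference from WT was narrowed before matching. For CYP7B1 the nearest were TAL1 (0.279), STON2 (0.498), ATP8A2 (0.683), PGAP4 (0.737) and PLEKHG1 (0.757). TAL1, a transcription factor of blood stem cells, averaged 72.0 ± 4.20 CPM in KO clone 1, 67.3 ± 0.352 in KO clone 2 and 7.13 ± 0.577 in WT (SD, n = 3 each). For ABCA1 they were NIBAN2 (0.0433), NBEA (0.0696), BCL6 (0.100), CD3E (0.103) and CTSF (0.109). NIBAN2 averaged 17.2 ± 0.935 CPM in KO clone 1, 22.9 ± 0.574 in KO clone 2 and 61.2 ± 1.64 in WT.

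Other genes of the pathway were taken from 6 lists of 109 genes, of which 82 passed the filter. Of the 82, 7 were called in KO clone 1 against WT, 5 in KO clone 2 against WT and 5 with both clones averaged, beside shares of 7.58%, 5.96% and 6.53% of all tested genes. None was called in KO clone 2 against KO clone 1 by edgeR or by DESeq2, where edgeR called 2.82% of all tested genes. At an adjusted p under 0.05 alone, 29 were higher and 12 lower there. Nothing is read from these counts. The counts by list follow, with those over all 20655 genes beside them: at an adjusted p under 0.05 alone, 17.4% of all genes were higher and 18.8% lower in KO clone 1, 14.4% and 16.1% in KO clone 2, 16.4% and 18.9% with the clones averaged, and 13.4% and 12.6% in KO clone 2 against KO clone 1. The median log2 fold change of all genes was 0.00 in each contrast.

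**Figure D4:**
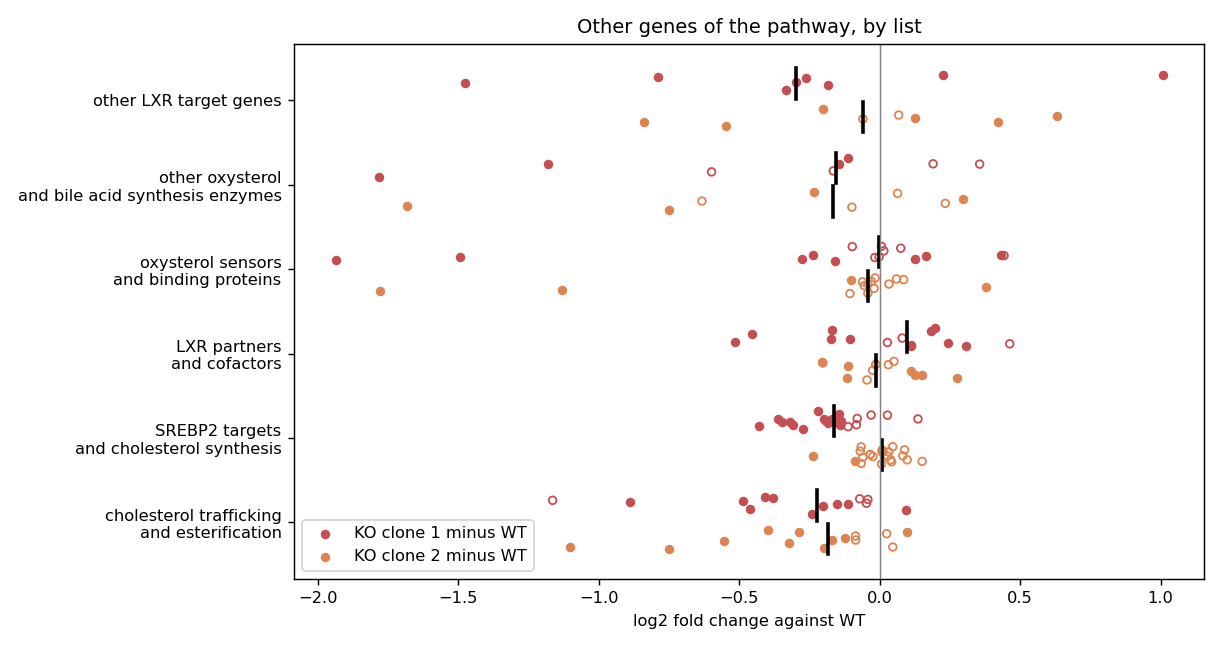
Log2 fold changes of the tested genes of the 6 pathway lists in KO clone 1 and KO clone 2 against WT; filled points passed an adjusted p under 0.05, open points did not, and black bars are list medians (SMPDL3A, with no KO counts, is in the medians but not drawn). Cholesterol synthesis genes lay mostly below 0 in KO clone 1, with a median of -0.16, and around 0 in KO clone 2, with a median of 0.01.

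Of 18 other LXR target genes, 9 passed the filter, and these moved in both directions. With both clones averaged, 6 fell and 2 rose, with a median log2 fold change of -0.18. Fitting the clones as a single KO group gave 4 lower and 2 higher. KO clone 1 alone had 7 lower and 2 higher (median -0.30), and KO clone 2 had 4 lower and 3 higher (median -0.06).

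SMPDL3A, a phosphodiesterase induced by LXR in human macrophages, was the extreme. SMPDL3A had 0 counts in all 3 libraries of KO clone 1 and all 3 of KO clone 2, and 106, 75 and 59 counts (2.76, 1.83 and 1.82 CPM) in WT. Against the limit of 3 counts over a group it was at least 65.6-fold lower in KO clone 1 and at least 86.6-fold lower in KO clone 2. None of the 3 tested genes within 500 kb of SMPDL3A was called.

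Other LXR targets rose. SREBF1, the master regulator of fatty acid synthesis, averaged 37.5 ± 2.23 CPM in KO clone 1, 43.0 ± 0.794 in KO clone 2 and 32.1 ± 0.926 in WT (SD, n = 3 each). Its log2 fold change with both clones averaged was 0.32 (SE 0.044, adjusted p of 7.57e-08, edgeR). APOE, the apolipoprotein that carries cholesterol from macrophages, averaged 3.87 ± 0.209 CPM in KO clone 1, 2.98 ± 0.0614 in KO clone 2 and 1.92 ± 0.264 in WT. The APOE log2 fold change was 0.82 (SE 0.135, adjusted p of 3.26e-06, edgeR), so efflux genes did not share 1 direction.

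SCD, the desaturase, averaged 338 CPM in KO clone 1, 353 in KO clone 2 and 406 in WT, and fell in both clones with a log2 fold change of -0.23 with the clones averaged (adjusted p of 9.75e-09, edgeR). FASN, fatty acid synthase, fell in KO clone 1 (-0.33, adjusted p of 2.38e-09) but did not pass in KO clone 2 (0.07, adjusted p of 0.205), and was 0.40 higher in KO clone 2 than in KO clone 1 (adjusted p of 6.57e-11). ACACA, acetyl-CoA carboxylase, likewise was 0.31 higher in KO clone 2 than in KO clone 1 (adjusted p of 3.58e-10). LPCAT3, which puts polyunsaturated chains into phospholipids, was 0.24 higher in KO clone 2 than in KO clone 1 (adjusted p of 4.5e-06), a difference of 0.15 with an adjusted p of 0.0917 when counted without regard to strand. MERTK, the receptor by which macrophages take up dying cells, fell by 0.67 with the clones averaged (SE 0.087, adjusted p of 3.03e-08). FASN, ACACA and MERTK were chosen after their values were seen.

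Among 17 other enzymes of oxysterol and bile acid synthesis, 8 passed the filter. With both clones averaged 5 fell and 1 rose, with a median log2 fold change of -0.15. Fitting the clones as a single KO group gave 3 lower and none higher. In KO clone 1 4 fell and none rose, and in KO clone 2 3 fell and 1 rose, with medians of -0.15 and -0.17. In KO clone 1 the number that fell was 2 without KO clone 1 replicate 1, KO clone 1 replicate 3 or WT replicate 2. With both averaged it was 3 without KO clone 1 replicate 3 or WT replicate 2. SLC27A2, which activates very long chain fatty acids and bile acid precursors with coenzyme A, had 66.0, 63.5 and 64.3 CPM in KO clone 1, 66.7, 70.6 and 70.2 in KO clone 2, and 222, 215 and 229 in WT. All KO libraries were below all WT libraries, and SLC27A2 fell by 1.73 on the log2 scale with both clones averaged (SE 0.028, adjusted p of 1.59e-37, edgeR), the comparison whose call is the reason it is named.

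CYP46A1, the cholesterol hydroxylase best known from neurons and named here after its values were seen, averaged 0.956 CPM in KO clone 1, 1.28 in KO clone 2 and 2.15 in WT. It fell by 0.97 on the log2 scale with both clones averaged (SE 0.187, adjusted p of 5.15e-05, edgeR), opposite to CYP7B1. HSD3B7, which acts after CYP7B1 on the way to bile acids, had a log2 fold change of 0.03 (SE 0.222, adjusted p of 0.933) and did not pass.

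Of 18 oxysterol sensors and binding proteins 15 passed the filter. With both clones averaged 5 fell and 2 rose, and the median log2 fold change was -0.03. With the clones fitted as a single KO group, 2 fell and 1 rose. Under RLE scaling, DESeq2, no low-count filter and counting without regard to strand, 1 rose likewise. KO clone 1 had 5 lower and 3 higher, and KO clone 2 had 3 lower and 1 higher. Without KO clone 1 replicate 1, 2 rose in KO clone 1 and 1 with both averaged. RORA and OSBP2 are named here for their calls with both clones averaged, which their p-values below therefore repeat. RORA, a nuclear receptor that binds sterols, had 5.53, 4.94 and 6.08 CPM in KO clone 1, 6.11, 6.16 and 6.19 in KO clone 2, and 20.9, 22.1 and 20.3 in WT. RORA fell by 1.86 on the log2 scale with both clones averaged (SE 0.071, adjusted p of 2.11e-24, edgeR), and by 1.18 when counted without regard to strand. OSBP2, an oxysterol-binding protein, fell by 1.31 (SE 0.158, adjusted p of 5.08e-09, edgeR). GPR183, the receptor for the oxysterol made by CH25H and CYP7B1, averaged 0.538 CPM in KO clone 1, 0.389 in KO clone 2 and 0.390 in WT, with a log2 fold change of 0.21 (SE 0.331, adjusted p of 0.678), which did not pass.

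INSIG1, the sterol-regulated retention protein of the SREBP system, averaged 176 CPM in KO clone 1, 191 in KO clone 2 and 196 in WT. It fell in KO clone 1 (log2 fold change -0.16, adjusted p of 9.95e-05, edgeR) and did not pass in KO clone 2 (-0.04, adjusted p of 0.36).

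Of 16 LXR partners and cofactors 14 passed the filter and none was called against WT in either clone by edgeR. At the adjusted p alone 6 rose and 5 fell in KO clone 1, 4 rose and 3 fell in KO clone 2, and 4 rose and 4 fell with both averaged, with medians of 0.10, -0.01 and 0.04. Fitting the clones as a single KO group gave 4 higher and 3 lower. In KO clone 2 the number that rose was 2 without KO clone 2 replicate 1, and the number that fell was 1 without KO clone 2 replicate 2, KO clone 2 replicate 3 or WT replicate 2. RXRA, an RXR partner of the LXRs, averaged 144 ± 0.967 CPM in KO clone 1, 179 ± 0.362 in KO clone 2 and 206 ± 5.83 in WT (SD, n = 3 each). It fell by 0.51 on the log2 scale in KO clone 1 (SE 0.030, adjusted p of 3.53e-18, edgeR) and by 0.20 in KO clone 2 (SE 0.029, adjusted p of 3.48e-07). RXRA was 0.31 higher in KO clone 2 than in KO clone 1 (SE 0.030, adjusted p of 5.36e-11), in the same order of groups as ABCA1. RXRB, another RXR, had 12.3 CPM per kb of exon in KO clone 1, 11.5 in KO clone 2 and 11.6 in WT. RXRA had 11.9, 14.8 and 17.0 CPM per kb in the same groups. RXRB was named after its values were seen.

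The SREBP2 and cholesterol synthesis list separated the clones. Of its 23 genes 22 passed the filter, and 15 fell and none rose in KO clone 1 against WT, with a median log2 fold change of -0.16. In KO clone 2 against WT 2 fell and none rose (median 0.01), and with a library left out 0 to 2 fell and 0 to 1 rose. In KO clone 2 against KO clone 1 16 were higher and none lower, with a median of 0.18, and none of the 22 was called in any contrast by edgeR. Without KO clone 1 replicate 1, 15 were lower in KO clone 1 against WT and 13 higher in KO clone 2 against KO clone 1.

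SREBF2, which encodes SREBP2, averaged 358 CPM in KO clone 1, 388 in KO clone 2 and 379 in WT, and did not pass with both clones averaged (-0.03, SE 0.030, adjusted p of 0.566). APOC1, a further LXR target, did not pass the filter.

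Of 17 genes of cholesterol trafficking and esterification 14 passed the filter. In KO clone 1 9 fell and 1 rose, in KO clone 2 9 fell and 1 rose, and with both averaged 10 fell and none rose, with medians of -0.22, -0.18 and -0.22. Fitting the clones as a single KO group gave 8 lower and none higher. With a library left out, 8 to 9 fell in KO clone 1, 7 to 9 in KO clone 2 and 9 to 10 with both averaged, while 0 to 2 rose in each clone and 0 to 1 with both averaged. GRAMD1B, which carries cholesterol from the plasma membrane to the endoplasmic reticulum and was chosen after its values were seen, had 97.5, 87.2 and 95.9 CPM in KO clone 1, 58.9, 59.5 and 61.7 in KO clone 2, and 133, 128 and 125 in WT. Its libraries were lowest in KO clone 2, and it fell by 0.64 on the log2 scale relative to KO clone 1 (SE 0.040, adjusted p of 1.28e-16, edgeR), in the direction of ABCG1. SOAT1, which esterifies cholesterol for storage, fell by 0.21 with both clones averaged (SE 0.038, adjusted p of 2.81e-05, edgeR). LIPA, the lysosomal cholesteryl ester hydrolase, fell by 0.10 (SE 0.036, adjusted p of 0.0265, edgeR). The LIPA difference did not pass without KO clone 1 replicate 1 (-0.09, adjusted p of 0.0583) or without WT replicate 3 (-0.08, adjusted p of 0.157). Nor did it pass with the clones fitted as a single KO group (-0.10, adjusted p of 0.100, edgeR).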

How the data were processed

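RNA from 9 KG-1a libraries in 3 groups of 3 was sequenced. Raw counts of read pairs per gene, on GRCh38, came from STAR in 2-pass mode, per the series text; the version of STAR and its gene annotation are not given in the sources used here. The authors deposited 3 countings per gene for each library (without regard to strand, and for each strand). They also deposited 1 table comparing both clones together with WT, with log2 fold changes and p-values from DESeq2, per its file header and the series text. Positions and exon lengths came from GENCODE release 44, and symbols from the deposited table. The table's 18 further per-sample columns were not used.

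The counting of the strand that held 92.03% to 92.31% of stranded counts was analysed. Totals of unassigned pairs were left out, and 25.9% to 29.6% of pairs were counted to a gene, which limits the depth. One model was fitted to all 9 libraries in R 4.3.3 with edgeR 4.0.16 (limma 3.58.1): filterByExpr by group, TMM scaling, robust quasi-likelihood F tests, and Benjamini-Hochberg adjustment over all 20655 tested genes. SE was taken as the size of a log2 fold change over the root of its F statistic. CPM was computed on TMM-scaled totals, and intervals and limits from 3 counts cover counting error only. The procedure was tested on simulated data. Alternatives were RLE scaling, DESeq2 1.42.0, no low-count filter, counts without regard to strand, a replicate block, only the groups compared, and each library left out. For both clones averaged, only the groups compared meant all 9 libraries with the clones fitted as a single KO group.

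The members and lists were chosen with earlier results of these data known. All members were named, with pathway genes fixed by role (such as SREBF1 and APOE), up to 4 per list called with both clones averaged, and any called between the clones. Some genes that this rule names are not reported here.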

Additional observations from a re-analysis of the deposited data

Results flagged for a closer look

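KO clone 2 and KO clone 1 differed for 13 of the named genes, by an adjusted p under 0.05 in edgeR's test. Of all tested genes, 25.9% passed this test. Some of the 13 were chosen after their values were seen, so nothing is read from the count. Each KO group is 1 clone, and what these differences come from was not tested. All values here are log2 differences, KO clone 2 minus KO clone 1. Of the members, ABCG1 differed by -1.38, NR1H3 by -0.48 and ABCA1 by 0.40.

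Among LXR targets and partners, FASN differed by 0.40, ACACA by 0.31, RXRA by 0.31, LPCAT3 by 0.24, SREBF1 by 0.20 and APOE by -0.38. In the sterol response genes the differences were 0.12 for INSIG1 and 0.11 for SREBF2. SLC27A2 differed by 0.10 and GRAMD1B by -0.64. Of these 13, 9 were higher in KO clone 2, and ABCG1, NR1H3, APOE and GRAMD1B were lower. FASN, ACACA and GRAMD1B had been chosen after their values were seen.

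Some of the smaller differences, none of which reached the fold minimum for a call, depended on the libraries and settings used. The APOE difference was -0.42 to -0.34 but did not pass when any 1 of the 6 KO libraries was left out, and the SLC27A2 difference did not pass without replicate 2 or replicate 3 of either clone. The differences of SREBF1 and SREBF2 did not pass without KO clone 1 replicate 3, and that of INSIG1 did not pass without KO clone 1 replicate 1 or without KO clone 2 replicate 3.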

How the results depend on the processing

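Between the clones, ABCG1 was the 1 member called under all 6 other settings and with each library left out. With each library left out in turn, the pathway genes called numbered 6 to 9, 5 to 6 and 5 to 7 against WT, and 0 to 1 between the clones, where SOAT2 was called without KO clone 1 replicate 2 or without KO clone 2 replicate 3. Counting without regard to strand also gave 1 there (AKR1C4), and reversed RORA between the clones, at -0.50 (adjusted p of 2.59e-06, edgeR) against 0.16; the cause was not tested. Called genes in all numbered 1523 to 1651, 1215 to 1319, 1328 to 1465 and 554 to 591 across the 4 contrasts with a library left out. The APOE difference between the clones did not pass under DESeq2 (adjusted p of 0.0847). Nor did it pass in edgeR without the low-count filter (adjusted p of 0.0943) or counted without regard to strand (adjusted p of 0.0644). The SLC27A2 difference did not pass under DESeq2 (adjusted p of 0.0833) or in edgeR counted without regard to strand (adjusted p of 0.0879). Counts by list under these settings were added after seeing the data. With each library left out, 13 to 17 of the SREBP2 list were lower in KO clone 1 against WT. In KO clone 2 against KO clone 1, 12 to 17 of that list were higher. With both clones averaged 11 were lower, but 2 when the clones were fitted as a single KO group.

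Replicate numbers did not pair the libraries: the correlations of same-numbered libraries were -0.014 to 0.012 over 9 pairs. A fit with the replicate number as a block called 1557, 1228, 1349 and 577 genes, against 1565, 1232, 1349 and 582 without it. Depth limits CH25H and the WT level of CYP7B1.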
